A study of Homo sapiens with 6 samples.

Results

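The genes described here encode apolipoproteins and the transfer protein that loads lipid onto APOB: APOA1, APOA2, APOA4, APOB, APOC1, APOC3, APOE, APOH, APOM and MTTP, the transfer protein. They were chosen by name, and all 10 had a row among the 22077 genes of the deposited table. RNA was sequenced from 3 libraries of human hepatocellular carcinoma cells overexpressing TKT, the transketolase of the pentose phosphate pathway, and 3 libraries of control cells whose genotype label is wt. The study sought the transcripts that change with TKT. According to its methods, TKT was introduced on a transfected plasmid (pTSB02-GFP-PURO) followed by selection. The labels number each library as a replicate biosample, and the methods state in general terms that experiments were repeated independently. Whether these RNA samples came from separate cultures, or the cells from 1 clone, is not said for the sequencing, so p-values measure the spread between these libraries, which may be technical. The sample labels give the cell line as Hu7, a spelling close to Huh7, which the study's Results name for this experiment, whereas its Methods name HCCLM3. Both are liver cancer lines, and the counts were not used to choose between them.

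Apolipoproteins are the protein part of the particles that carry cholesterol and triglyceride through plasma, and the liver makes most of them. APOB is the structural protein of VLDL and LDL, and MTTP, the large subunit of the microsomal triglyceride transfer protein, adds lipid to it in the endoplasmic reticulum. APOA1 and APOA2 are the main proteins of HDL, APOE is a ligand for lipoprotein receptors, and the small APOC proteins act on lipases and receptors once the particle is in plasma.

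The libraries held between 30148788 and 37096156 counts, and a count of 3, taken as the floor, corresponded to 0.0809 to 0.0995 CPM (counts scaled by library size). TKT itself was at 9447.5 ± 88.0 CPM (SD, n = 3) in the overexpressing libraries and 494 ± 23.0 CPM (SD, n = 3) in control, which edgeR's quasi-likelihood test put at 4.26 on the log2 scale (adjusted p = 1.15e-25). All 15 hepatocyte markers examined passed the filter on low counts. Albumin and alpha-fetoprotein ranked 13 and 12 by FPKM (counts scaled for gene length and library size) in every library, whereas markers of other cell types were mixed. KRT7, KRT19, VWF, CD68, CD3E, COL1A2 and ACTA2 had at most 6 counts, but the cholangiocyte markers SOX9 (5079 to 6094 counts) and EPCAM (1015 to 1279) and the endothelial marker PECAM1 (472 to 717) were expressed and were not called. At an adjusted p under 0.05 in edgeR, which 10.6% of all genes tested passed, 5 of the 15 hepatocyte markers were higher after TKT and 0 were lower. The 5 were FGA, FGB, FGG, VTN and HPX, with log2 fold changes of 0.50, 0.50, 0.37, 0.12 and 0.61, and 4 of the others had values below 0. LYZ, listed as a leukocyte marker, was called lower (119 against 151 CPM, 3563 to 5255 counts), as were the enterocyte markers VIL1 and CDX2 (1605 to 3628 counts). The part of these shifts in the results below was not tested.

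By FPKM, which permits levels of different genes to be set side by side, the 10 genes fell into an abundant set of 7 and a set of 3 at or near the floor. APOA2 ranked 39 to 45 among all genes, depending on the library, and APOE ranked 47 to 52. APOA1 was between ranks 92 and 104, APOC1 between 215 and 262 and APOH between 284 and 407. APOC3 and MTTP were lower, at ranks 867 to 1201 and 1479 to 1658. The FPKM ranges of these 7 genes did not overlap within a group. The closest pair was APOA2 and APOE after TKT, at 609 to 633 and 572 to 608 FPKM. By CPM, which takes no account of length, APOE (1281.0 ± 57.5 after TKT) stood above APOA2 (585 ± 19.8), since the length implied by the deposited FPKM was 2.16 kb for APOE and 0.95 kb for APOA2. The 10 genes together took 0.273% ± 0.00651 of the counts after TKT and 0.267% ± 0.0165 in control (SD, n = 3 each), and these ranges overlapped.

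**Figure D1:**
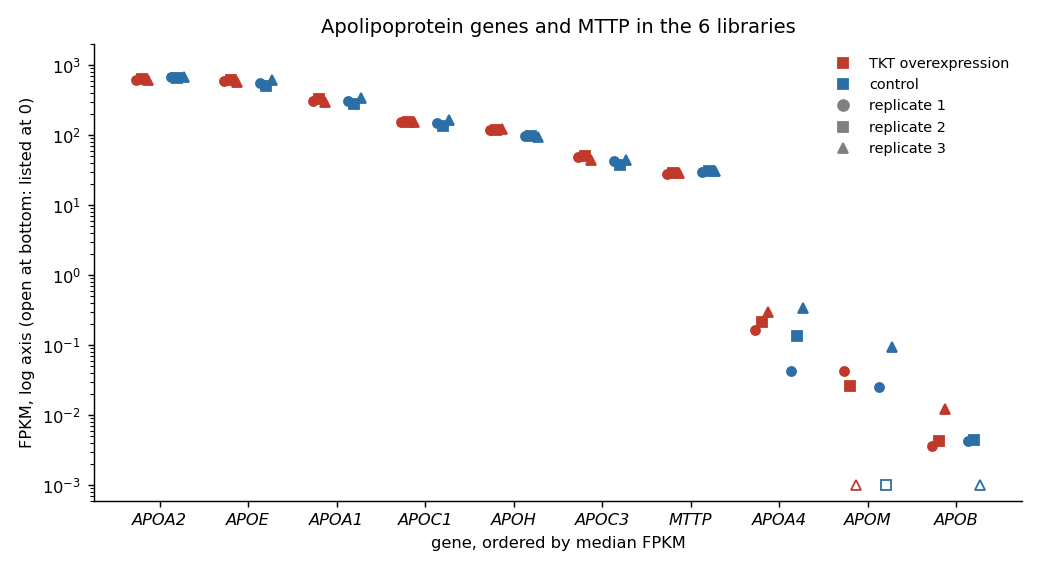
FPKM of each gene (log axis) in the 6 libraries, red for TKT overexpression and blue for control, with the marker shape giving the replicate number and open markers at the bottom for libraries listed at 0. APOA2, APOE, APOA1, APOC1, APOH, APOC3 and MTTP lie between 27.7 and 685 FPKM, and APOA4, APOM and APOB reach at most 0.341 FPKM.

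Of the 10 genes, 8 passed the expression filter and were tested among 14162 genes. At an adjusted p under 0.05 (edgeR's quasi-likelihood test, Benjamini-Hochberg over all genes tested), 1 was higher, APOH, and 1 was lower, APOA2. The share called among all genes tested was 10.6%, with 5.69% higher and 4.94% lower. Neither gene had an absolute log2 fold change over 1, a limit that 0.727% of all genes tested passed together with the adjusted p. The median log2 fold change was 0.06 over the 8 genes and 0.00 over all genes tested.

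APOH encodes a plasma glycoprotein that binds anionic phospholipids and is found partly on lipoproteins. GENCODE 29 places it on the minus strand of chromosome 17 (GRCh38), between 66212033 and 66256525, and the RefSeq start used here is inside that span at 66229415. APOA2 lies on chromosome 1 from 161222292 to 161223631, also on the minus strand. The 250 bases before the RefSeq start of each are shown because these were the called genes, the former at chr17:66229416-66229665 and the latter at chr1:161223629-161223878. Each reads 5′ to 3′ on the gene's strand, and capitals mark matches to the motifs searched.
APOH: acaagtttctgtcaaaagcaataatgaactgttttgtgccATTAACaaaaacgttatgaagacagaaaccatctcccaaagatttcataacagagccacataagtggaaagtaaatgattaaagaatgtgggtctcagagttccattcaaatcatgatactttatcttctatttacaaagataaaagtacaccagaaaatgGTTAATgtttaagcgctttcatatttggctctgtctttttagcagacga
APOA2: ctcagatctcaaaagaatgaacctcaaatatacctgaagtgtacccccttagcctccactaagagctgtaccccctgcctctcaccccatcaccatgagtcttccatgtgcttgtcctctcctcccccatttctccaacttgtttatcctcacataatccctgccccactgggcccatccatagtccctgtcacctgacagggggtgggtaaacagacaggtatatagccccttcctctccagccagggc
The capitals in APOH are the HNF1 half-site GTTAAT, read on the minus strand at positions -210 to -205 and on the plus strand at -49 to -44, counted from the start. Of 34788 RefSeq promoters of this length, 6.26% held GTTAAT on either strand. RefSeq starts were matched for 7 of the 10 genes, at 10 positions in all. In those windows the other letters searched on both strands were the HNF4 site CAAAGTNCA, the AP-1 site TGANTCA, the sterol element TCACNCCAC and the TATA box TATAAA. The single further match was TATAAA before the later MTTP start, on the minus strand at -227 to -222, and 10.8% of all promoters held it. In GC content the APOH window, at 33.2%, was the lowest of the 10, against 52.8% for APOA2 and 64.8% before the first APOE start.

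APOH was at 117, 119 and 123 FPKM in the TKT libraries and at 98.4, 98.2 and 95.0 FPKM in control. Every TKT library was above every control library, and both groups were tight, with coefficients of variation of 1.81% and 1.68% in CPM. In edgeR the level rose 1.23-fold (log2 fold change 0.30, standard error 0.04, 95% interval 0.21 to 0.39, adjusted p = 4.81e-05). Its rank rose from 374 to 407 in control to 284 to 312 after TKT. This was the called change that held under each of the 16 other settings tried, with log2 fold changes from 0.27 to 0.31 and adjusted p-values from 5.19e-10 to 0.00422. The protein-coding genes on either side were not called. CEP112 had 12 to 30 counts and PRKCA had a log2 fold change of -0.16 (adjusted p = 0.146, edgeR).

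APOA2 was at 611, 633 and 609 FPKM after TKT and at 679, 656 and 685 FPKM in control. The groups did not overlap, with the nearest libraries 633 and 656 FPKM. APOA2 fell by 8.55% (log2 fold change -0.13 with standard error 0.04 and 95% interval -0.21 to -0.05, adjusted p = 0.0274, edgeR). This call was less stable than that of APOH. The direction held under all 16 other settings, but the adjusted p was 0.05 or more in 7 of them, up to 0.141, including those without TKT overexpression replicate 1 or 3 or without control replicate 1 or 3.

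MTTP lies on chromosome 4 from 99563761 to 99623999 on the plus strand. It was at 27.7, 28.3 and 28.9 FPKM after TKT and 29.5, 31.0 and 30.9 FPKM in control. Here too the groups did not overlap, but the difference did not pass the threshold (log2 fold change -0.11, standard error 0.04, 95% interval -0.20 to -0.02, adjusted p = 0.10, edgeR). Non-overlap was seen in 28.0% of all genes tested, and in APOH, APOA2 and MTTP among the 8. TRMT10A, which overlaps the start of MTTP, had at most 314 counts, against 4541 to 5365 for MTTP.

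**Figure D2:**
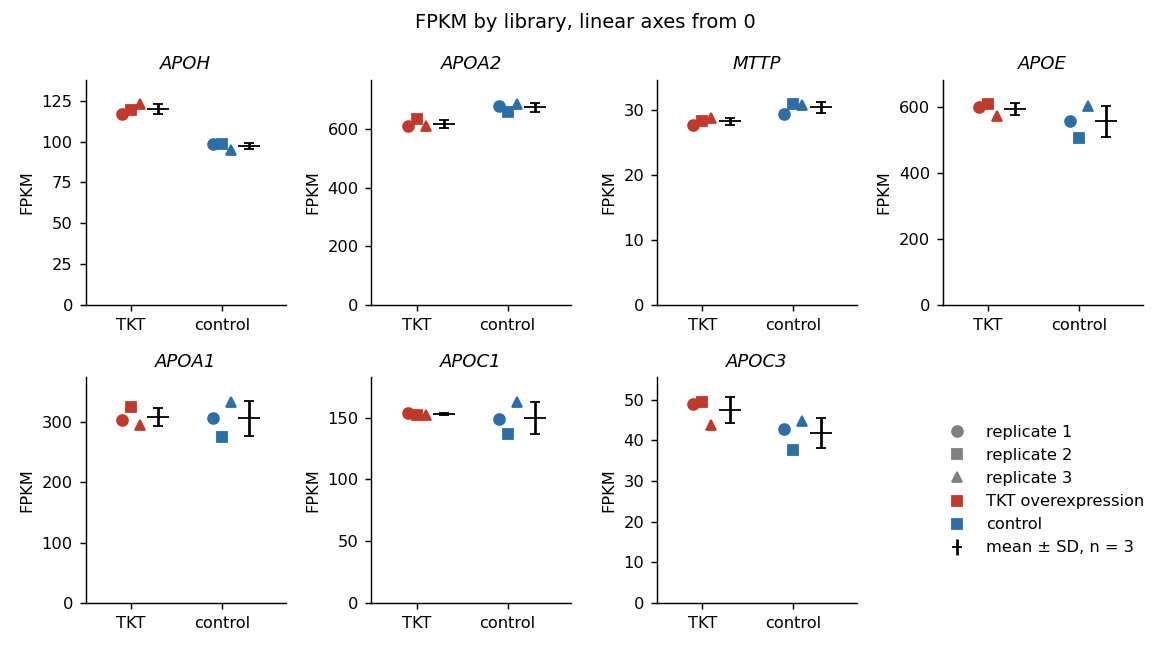
FPKM by library for the 7 abundant genes on linear axes that start at 0, with points for libraries (red, TKT overexpression; blue, control) and bars for the mean ± SD (n = 3). The groups are apart for APOH, APOA2 and MTTP, and overlap for APOE, APOA1, APOC1 and APOC3.

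APOE and APOC1 sit next to each other on chromosome 19, APOE from 44905754 to 44909393 and APOC1 from 44914247 to 44919349, both on the plus strand. APOE was at 599, 608 and 572 FPKM after TKT and 556, 506 and 602 FPKM in control. APOC1, whose product inhibits receptor binding of lipoproteins, was at 154, 152 and 152 FPKM after TKT and 149, 137 and 163 FPKM in control. In both genes control replicate 2 was below all TKT libraries, and control replicate 3 was within the TKT range for APOE and above it for APOC1. The log2 fold changes were 0.09 (standard error 0.07, 95% interval -0.06 to 0.24, adjusted p = 0.463) for APOE and 0.02 (standard error 0.05, interval -0.09 to 0.14, adjusted p = 0.844) for APOC1 in edgeR. TOMM40, on the other side of APOE, had a log2 fold change of -0.12 (adjusted p = 0.112, edgeR).

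APOA1, APOC3 and APOA4 form a cluster on chromosome 11, between 116820700 and 116837950, in which APOC3 is transcribed from the plus strand and the other two from the minus strand. APOA1 was at 304, 325 and 295 FPKM after TKT and 307, 276 and 334 FPKM in control. APOC3, an inhibitor of lipoprotein lipase, was at 49.0, 49.5 and 43.7 FPKM after TKT and 42.7, 37.6 and 44.8 FPKM in control. The 2 groups overlapped for both genes, and for APOC3 only the lowest TKT library lay within the control range. The log2 fold change was 0.01 for APOA1 (standard error 0.08, 95% interval -0.19 to 0.21, adjusted p = 0.977) and 0.18 for APOC3 (standard error 0.07, interval 0.03 to 0.33, adjusted p = 0.136), both from edgeR. The antisense gene APOA1-AS, which overlaps APOA1, had at most 9 counts, against 9148 or more for APOA1. SIK3, the protein-coding gene next to APOA1, was higher after TKT, with a log2 fold change of 0.39 (adjusted p = 6.88e-05, edgeR).

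**Figure D3:**
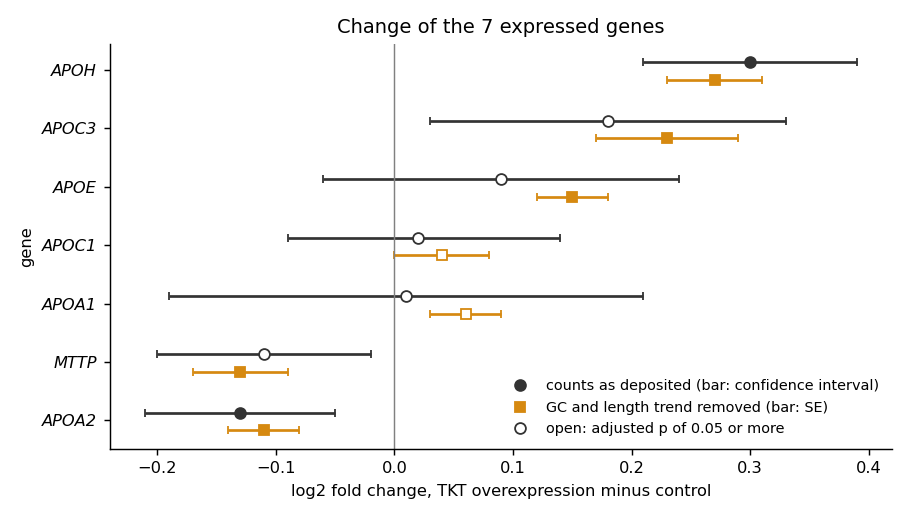
Log2 fold change of the 7 abundant genes, TKT overexpression minus control, from the counts as deposited (circles, 95% interval) and after a GC and length trend was removed from each library (squares, standard error), filled where the adjusted p was under 0.05. APOH at 0.30 and APOA2 at -0.13 are the 2 filled circles, and APOC3, APOE and MTTP are filled as squares alone.

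APOA4, APOB and APOM were near the floor. APOA4, an apolipoprotein made chiefly in the intestine, had 9, 10 and 14 counts after TKT and 2, 6 and 17 in control. The control range enclosed the TKT range, and edgeR gave 0.34 on the log2 scale (adjusted p = 0.823, standard error 0.69), with a 95% interval of -1.08 to 1.77 that covers more than a doubling in either direction. APOB had 2, 2 and 6 counts after TKT and 2, 2 and 0 in control. APOM, which carries sphingosine-phosphate on HDL, had 2, 1 and 0 counts after TKT and 1, 0 and 4 in control. APOB and APOM did not pass the filter and no fold change is given for them.

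These low values could not be read as the level of the gene without a further check, because some genes that every cell uses were also listed near 0. Of 115 ribosomal protein, proteasome and chaperonin genes examined after the values were seen, 9 had at most 50 counts in every library, while the median of the highest counts of the other 106 was 21556. RPS18 had 1 to 5 counts and PSMC4 had 0 to 2. Among the genes of particle assembly, SURF4 (0 to 4 counts) and DGAT1 (0 to 2 counts) were likewise near 0. Around APOM the low values were shared. Of the 36 protein-coding genes with a row within 1000000 bases of it on chromosome 6, 33 had at most 50 counts in every library, among them BAG6, which overlaps APOM (1 to 9 counts), and the highest was AGPAT1 with 955. Around APOB on chromosome 2 they were not shared. All 8 such genes with a row were above 50 counts in at least 1 library, with LDAH, the gene next to APOB, at 792 to 895. Why these genes had so few counts was not tested.

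The 7 abundant genes differed in how they varied between replicates. APOA1, APOC1, APOC3 and APOE were each lowest in control replicate 2, by -0.16, -0.14, -0.16 and -0.14 from the group mean in log2 CPM, and each highest in control replicate 3, by 0.14, 0.13, 0.12 and 0.13. Their coefficients of variation in control CPM were 9.4% to 10.2%, where the median of the 8677 tested genes above 10 CPM was 4.72% and the 90th percentile 10.1%. APOA2 went the same way by less, at -0.05 and 0.03, with a control coefficient of 3.12%. APOH and MTTP did not share this pattern, with control coefficients of 1.68% and 2.44%. The TKT libraries varied in a similar way. APOA1, APOC1, APOC3 and APOE were each lowest in TKT replicate 3, by -0.08, -0.02, -0.13 and -0.07. In that library APOA2 was at -0.04, APOH at 0.02 and MTTP at 0.01. Genes rich in GC moved in the same direction in the same libraries. The 2113 genes of highest GC content (55.6% to 73.9%) had median deviations of -0.042 in control replicate 2 and 0.026 in control replicate 3, and the 2116 genes of lowest GC content had 0.035 and -0.014. The longest annotated transcripts of APOE, APOA1 and APOC3 were 68.5%, 62.7% and 60.4% GC. APOC1 was at 55.4% and APOA2 at 54.1%, against 42.9% for APOH and 42.1% for MTTP. The 2112 genes of 47.5% to 55.6% GC, a range that holds APOC1 and APOA2, had median deviations of -0.012 and 0.003. Short genes also moved this way. The 2170 genes of shortest implied length (0.07 to 3.63 kb) had -0.04 and 0.033, and this range holds APOH and APOA2 too. Whether the pattern follows GC content or length was not tested.

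With the trend in GC content and length removed from each library, an alternative chosen after seeing the data, 5 of the 8 genes were called by edgeR, where 1924 of 14162 genes were. Removing the trend from each library also removes any part of it that differs between the groups. Before removal, the median log2 fold change was -0.058 over the 2113 genes of highest GC content and 0.013 over the 2116 of lowest. The standard error of APOE fell from 0.07 to 0.03 and its log2 fold change moved from 0.09 to 0.15 (adjusted p = 0.00496). APOC3 moved from 0.18 to 0.23 (adjusted p = 0.00629) and MTTP from -0.11 to -0.13 (adjusted p = 0.0189). How far these 3 calls come from the shift in fold change was not tested. APOH and APOA2 kept their calls, at 0.27 and -0.11, whereas APOA1 (0.06, adjusted p = 0.267) and APOC1 (0.04, adjusted p = 0.525) did not pass. The calls of APOE, APOC3 and MTTP thus rest on this correction, except that APOE was also called without control replicate 3 (0.16, adjusted p = 0.0471, edgeR). Without control replicate 2 APOE was at 0.03 (adjusted p = 0.771) and APOC3 at 0.11 (adjusted p = 0.393).

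**Figure D4:**
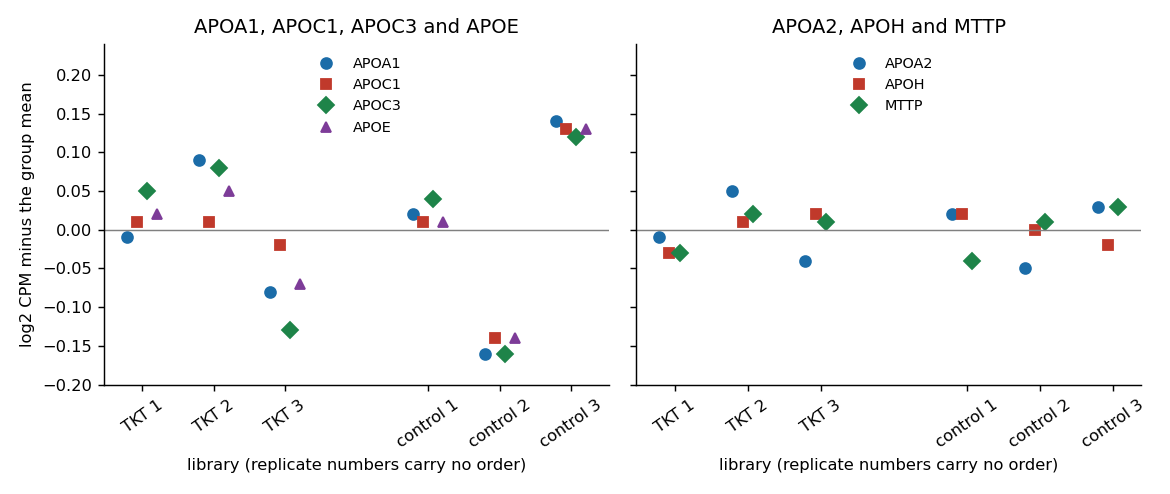
Log2 CPM of each gene minus its group mean in the 6 libraries. APOA1, APOC1, APOC3 and APOE (left) lie together between -0.16 and -0.14 in control replicate 2 and between 0.12 and 0.14 in control replicate 3, and APOA2, APOH and MTTP (right) stay within 0.05 of 0.

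Ratios within a library compare the genes without any scaling between libraries. The FPKM ratio of APOH to APOA2 was 0.189 to 0.202 after TKT and 0.139 to 0.150 in control, and that of APOH to MTTP was 4.22 to 4.26 against 3.08 to 3.34. The ratio of APOE to APOA2 was 0.939 to 0.980 after TKT and 0.771 to 0.878 in control, with APOA2 above APOE in all 6 libraries. For genes of 1 cluster, the ratio of APOC1 to APOE was 0.250 to 0.267 after TKT and 0.269 to 0.271 in control, and that of APOC3 to APOA1 was 0.148 to 0.161 against 0.134 to 0.139. The ratio of APOA1 to APOA2 overlapped between the groups, at 0.486 to 0.512 and 0.421 to 0.487. The ratios were not tested, and those that did not overlap are given as values of 3 libraries against 3. No share of non-overlapping ratios over other gene pairs is given beside them, so they are not read as group differences. For APOH over APOA2 or MTTP, the separation follows from the changes of the single genes given above and is no further support for them. The other genes whose 6 library deviations lay closest to the members' median profile, by Euclidean distance over log2 CPM among 5622 genes, were ATP6V0B, AMBP, RPL13A, PSKH1 and MYDGF, at distances of 0.038 to 0.043. None of the 5 was called (adjusted p from 0.605 to 0.854, edgeR). They were picked for nearness to a profile that differs little between the groups, so this is no separate result. AMBP encodes the plasma protein precursor of bikunin.

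Other genes of lipoprotein metabolism were examined in 5 lists by role, and 20 of the 98 tested were called, 8 higher and 12 lower, against 10.6% of all genes tested. Of the 13 other apolipoproteins and particle-bound proteins tested, 0 were called by edgeR and 1, PON1, had an unadjusted p under 0.05. PON1, an HDL-bound esterase, had a log2 fold change of 0.18 (adjusted p = 0.123). CLU, a chaperone carried on HDL, was at 1458.3 ± 48.3 CPM after TKT and 1441.0 ± 45.0 in control. SAA1 had the largest value, 2.29, at 2 to 184 counts (adjusted p = 0.363).

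The genes of particle assembly and secretion differed little. Of 24 tested, 0 were higher and 2 lower, with a median log2 fold change of -0.02, where 10.6% of all genes tested were called. The lower ones were ACAT2, at 131 ± 8.73 CPM after TKT and 157 ± 5.03 in control (log2 fold change -0.26, adjusted p = 0.00107, edgeR), and PNPLA3. ACAT2 was counted in this list, but it is a cytosolic thiolase that makes acetoacetyl-CoA, so its call does not bear on particle assembly. PNPLA3, a lipid droplet protein of hepatocytes (log2 fold change -0.33), lost its call in 9 of the 16 other settings. The cargo and coat genes SAR1B, MIA3, LMAN1 and SEC23A and the disulfide isomerase P4HB, partner of MTTP, had log2 fold changes from -0.05 to 0.04. Some others of the list were further from 0 without being called. SEC24D was at 0.17, SEC24A at 0.13, SORT1 at -0.14 and MIA2 at -0.16 (adjusted p from 0.0551 to 0.196, edgeR).

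Among the plasma lipases, transfer proteins and their inhibitors, LIPC and ANGPTL4 were higher after TKT. LIPC, hepatic lipase, was at 125, 130 and 129 CPM after TKT and 107, 103 and 107 in control (edgeR log2 fold change 0.28, adjusted p = 0.000278, standard error 0.05). Its groups did not overlap, which held for 28.0% of all genes tested. ANGPTL4, a secreted lipase inhibitor, had a log2 fold change of 0.45. Both calls held under all 16 other settings.

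Receptors and lipid exporters were lower where they were called, 5 of 17 tested, with 0 higher and a median log2 fold change of -0.15. Over all genes tested, 10.6% were called and 4.94% were called lower. LRP1, an endocytic receptor for APOE-bearing remnants, was at 268 ± 9.50 CPM against 317 ± 23.9 (log2 fold change -0.24, adjusted p = 0.00244, edgeR). ABCA1, which exports cholesterol to APOA1, LRP5 and LRP8 had log2 fold changes of -0.21, -0.13 and -0.25. Of these, LRP1 was called in 14 of 16 other settings, ABCA1 in 9 and LRP5 and LRP8 in 8 each.

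Among 32 regulators of apolipoprotein genes, 5 were higher and 4 lower, where 10.6% of all genes tested were called. HNF4A, the nuclear receptor that drives many hepatic apolipoprotein genes, was at 259, 262 and 262 CPM after TKT and 286, 294 and 291 in control, a log2 fold change of -0.15 (adjusted p = 0.0072, edgeR). Its groups did not overlap, as with CEBPA (log2 fold change -0.19) and MLXIPL (-0.28). Non-overlap was seen in 17 of the 32 regulators, called or not, and in 28.0% of all genes tested. SREBF1, the sterol-regulated factor of fatty acid synthesis, was at 111 ± 3.94 CPM against 150 ± 5.98 (log2 fold change -0.44, adjusted p = 1.06e-06, edgeR). Among the higher ones were FOXA2 (0.35) and NR5A2 (0.40), hepatic transcription factors, PROX1 (0.23) and CREB3L3 (0.17), a membrane-bound factor of hepatocytes. JUN, a subunit of AP-1, had the largest change of the list, at 171 ± 3.52 CPM against 100 ± 2.52 (log2 fold change 0.77, adjusted p = 3.96e-11, edgeR). Of the 16 other settings, the call was lost in 10 for MLXIPL, 6 for CREB3L3, 4 for CEBPA, 3 for PROX1 and 2 for HNF4A.

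**Figure D5:**
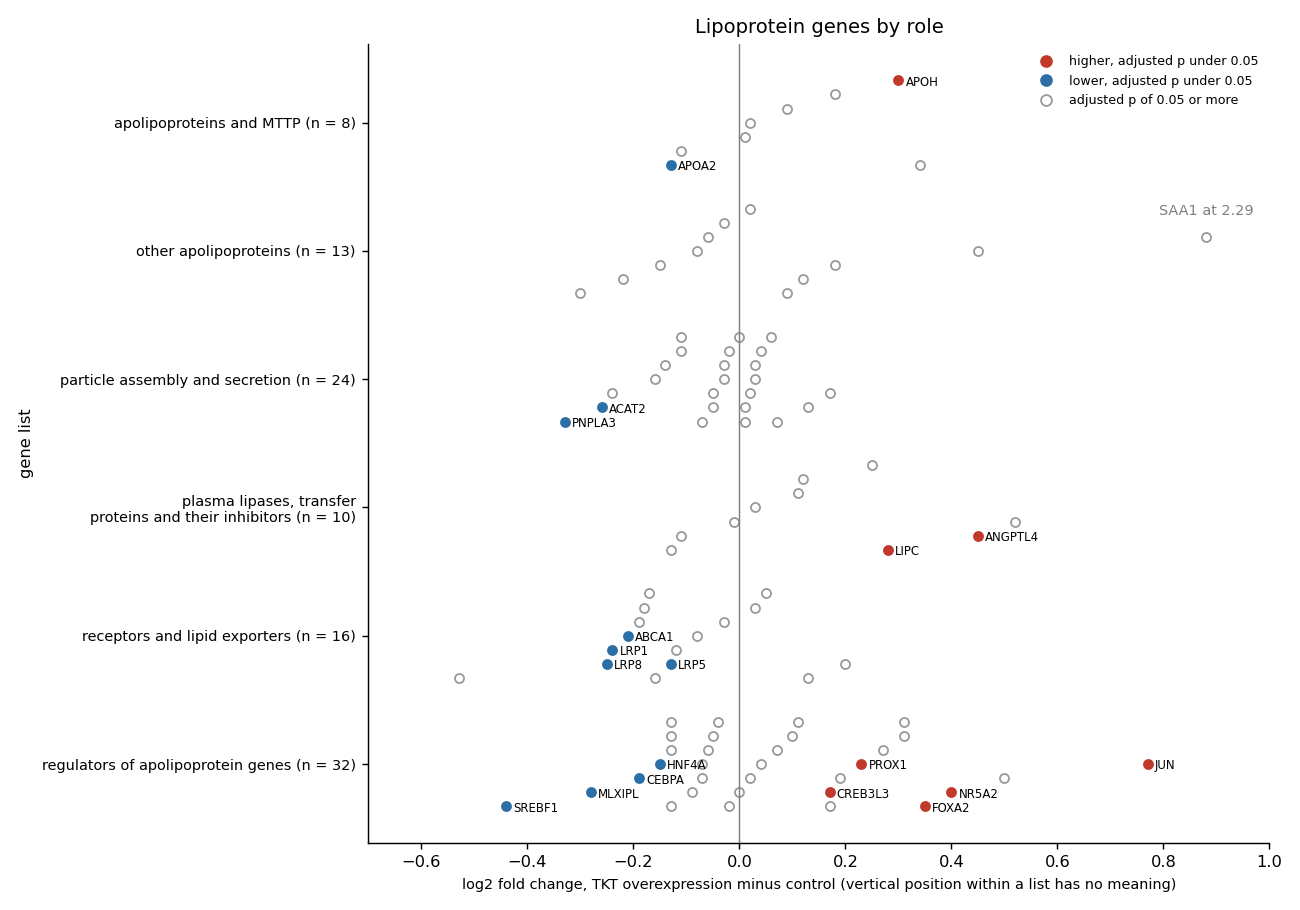
Log2 fold change (TKT overexpression minus control) of the tested genes in the apolipoprotein set and in 5 lists of other lipoprotein genes. All 5 lists are drawn, but 3 of their genes are not shown. Red marks higher and blue lower at an adjusted p under 0.05, open the rest, and SAA1 (2.29, not called) is given as text. In the list of receptors and lipid exporters the called genes lie below 0, and the regulators hold 5 above and 4 below.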

How the data were processed

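RNA-seq of 6 libraries, 3 with TKT overexpression and 3 control, was analysed. According to the study's methods and the submitters' processing notes, the authors trimmed 150 bp paired-end reads with fastp 0.22.0, aligned them to hg38 with HISAT2 2.1.0 and deposited featureCounts counts per gene. The annotation, strand and multi-mapping settings were not given in the sources used here. The authors also deposited FPKM values, which were counts over 1 length and 1 library factor for 99.8% of genes (within 1%). The overexpression columns carry the name TKT with the replicate number of the titles, and no column was left unused.

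Counts were tested in edgeR 4.0.16 (R 4.3.3; filterByExpr with a minimum count of 10, TMM factors, robust quasi-likelihood, Benjamini-Hochberg over 14162 genes), in which 1505 genes were called at an adjusted p under 0.05. CPM used TMM-scaled totals. Ranks are among all 22077 genes by FPKM. Intervals use the t distribution with edgeR's degrees of freedom and are not adjusted. The common biological coefficient of variation was 0.113. Replicates were not copies, with a chi-square per degree of freedom of 6.90 to 9.41 within groups and 28.8 to 35.6 between them. The alternatives were other scalings and filters, DESeq2 1.42.0, limma 3.58.1 on log2(FPKM + 1) and log2(FPKM + 0.1), a replicate block, each library left out, a minimum fold, and, chosen after seeing the data, a trend in GC content and length removed per library (natural splines, 5 degrees of freedom each, fitted on 8471 genes above 10 CPM; values for 94.1% of tested genes).

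The genes, lists and tests were chosen with earlier results of these data known. Named are the 10 genes, the called genes of smallest p in each list (at most 5 per direction), the 5 nearest profiles and neighbours at the loci. Some genes counted in the lists are not reported here. CLU, SAA1, PON1, SAR1B, MIA3, LMAN1, SEC23A, P4HB, SURF4, DGAT1 and the 115 genes that every cell uses were chosen after their values were seen. So were SEC24A, SEC24D, SORT1 and MIA2. Promoters are from RefSeq on GRCh38 and loci from GENCODE 29. APOA1, APOB and APOC3 had no promoter entry and no protein sequences were used here. On simulated counts for this comparison (13831 genes), edgeR recovered 49% of genes with an absolute log2 change of 0.5 and 74% of those with 1, with 6 false among 129 calls. The changed genes were drawn from genes of all levels that passed the filter. Changes as small as those of APOH and APOA2 were not simulated, so these shares do not apply to them.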

Additional observations from a re-analysis of the deposited data

How the results depend on the processing

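The 2 called apolipoprotein genes became 1 (APOH alone) with upper-quartile factors and in limma on log2(FPKM + 1), 0 with an absolute log2 fold change over 1 as well, and 5 with the GC and length trend removed. Without each library in turn the number was 1 to 2, and APOE replaced APOA2 without control replicate 3. The 20 called genes of the other lists became 10 and 11 in limma on log2(FPKM + 1) and log2(FPKM + 0.1), 12 to 19 with a library left out and 0 with the minimum fold. Over all genes the 1505 calls became 827 and 826 in limma, 791 to 1586 with a library left out, lowest without TKT overexpression replicate 1, and 103 with the minimum fold. With the replicate number as a block, the calls were 696 over all genes, 1 apolipoprotein gene and 11 of the other lists. Same-numbered libraries correlated at -0.002, -0.025 and 0.016 over all genes tested after the group means were removed. Genes of low count enter these values with their noise, so they cannot exclude a pairing of the replicates. With libraries left out, the log2 fold change ran from -0.07 to 0.08 for APOA1, -0.11 to 1.32 for APOA4, -0.04 to 0.09 for APOC1, -0.01 to 0.12 for ATP6V0B and MYDGF, -0.01 to 0.09 for AMBP, 0.00 to 0.10 for RPL13A and -0.03 to 0.09 for PSKH1, crossing or reaching 0, and the cause was not tested. For APOE it ran from 0.03 to 0.16 and for APOC3 from 0.11 to 0.24. TKT, APOH and the other lists' ANGPTL4, LIPC, ACAT2, JUN, FOXA2, NR5A2 and SREBF1 kept direction and call under all settings without a minimum fold. At 0 to 17 counts per library, no difference in APOA4, APOB or APOM was detectable, and why the counts were low was not tested.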
